A study of Rattus norvegicus with 10 samples.

Results

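Scn4a, Cacng1 and Capn3 are 3 genes of muscle excitation and calcium signalling, measured here in the shaft of the rat tibia after mechanical loading. They were chosen by their accessions on the array (NM_013178, NM_019255 and NM_017117), and they are 3 of the 4803 spotted accessions. Every one of the 10 arrays compared a treated right tibia with a contra lateral left tibia, whose RNA carried the other dye. In the LOAD group (n = 5 arrays) the right tibia was bent for 300 cycles at 2 Hz at a force setting of 60 N, and in the SHAM group (n = 5 arrays) it was squeezed between opposed pads without bending. An external reader measured a force above this setting. All groups were female Wistar rats of 12 weeks, and RNA was taken 6 hours after the single session, so the contra lateral tibiae of the LOAD and the SHAM rats form the other 2 groups. The ends, the periosteum and the marrow had been removed.

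In a skeletal muscle fiber the action potential is carried along the sarcolemma and into the transverse tubules by voltage-gated sodium channels. There the L-type calcium channel, or dihydropyridine receptor, senses the voltage and opens the ryanodine receptor of the sarcoplasmic reticulum, and the released calcium starts contraction and activates calmodulin-dependent enzymes. Scn4a encodes the pore-forming alpha subunit of the sodium channel of adult skeletal muscle, and its mutations cause periodic paralysis and myotonia in man. Cacng1 encodes the gamma subunit of the muscle L-type calcium channel. Capn3 encodes the muscle calpain, a calcium-dependent cysteine protease that binds titin in the sarcomere and whose loss causes a limb-girdle muscular dystrophy in man. Myl11, a regulatory light chain of fast skeletal myosin, was the muscle transcript against which the 3 genes were set.

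Several arrays need a remark before the results. The tibia numbers in the file headers were consecutive on 8 arrays. They were 3 and 26 on LOAD 4 and 25 and 4 on SHAM 4, with the treated tibia first. Both arrays may thus pair tibiae of different rats, with their control tibiae exchanged. Controls are called contra lateral as the arrays pair them. Results are also given without both arrays, and an exchange of the controls was not run. SHAM 1 was counted as SHAM by its title and file header, against 1 field of its labels that reads LOAD. The ratios of LOAD 2 correlated with those of LOAD 5 at r = -0.32 and of SHAM 2 at r = -0.33 over the genes, although the dyes ran the same way; the labels and headers state the dyes, and the direction was kept. Per array 32 to 166 spots had a low confidence, and 52.4% to 81.6% of the spots carried signal in both channels. All gene lists hold only genes that were named through RefSeq, which covered 1177 of the 4803 accessions. Of the markers of bone so named, 3 osteocyte genes (Cd44, Pdpn and Phex) and 3 of 4 osteoblast genes carried signal in all 20 channels. A channel was counted as carrying signal where the software gave a probability of at least 0.5. For Scn4a, Cacng1 and Capn3 this held in 20 of 20 channels and for Myl11 in 12 of 20, and the confidence of the spots was at least 0.92 for Scn4a, 0.61 for Cacng1, 0.55 for Capn3 and 0.18 for Myl11. The oligonucleotides can cross-react with other transcripts, and without their sequences this was not tested.

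The sequence before the start of the gene is shown for Capn3, whose ratio moved together with that of Myl11, for Myl11, and for Scn4a, for which no such relation was shown. They are the 250 bases before the start in RefSeq's annotation of GRCr8, at chr3:127861340-127861589 on the plus strand (Capn3), chr1:191260039-191260288 on the plus strand (Myl11) and chr10:91796325-91796574 on the minus strand (Scn4a). Capitals mark matches, on either strand, to the E-box CANNTG, the motif of the myogenic bHLH factors, and to the MEF2 motif; the 2 motifs did not overlap in these windows.
Capn3: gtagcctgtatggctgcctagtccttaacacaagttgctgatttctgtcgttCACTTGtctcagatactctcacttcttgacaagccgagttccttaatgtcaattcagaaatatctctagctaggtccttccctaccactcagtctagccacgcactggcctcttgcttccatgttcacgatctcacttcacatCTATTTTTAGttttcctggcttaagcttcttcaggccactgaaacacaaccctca
Myl11: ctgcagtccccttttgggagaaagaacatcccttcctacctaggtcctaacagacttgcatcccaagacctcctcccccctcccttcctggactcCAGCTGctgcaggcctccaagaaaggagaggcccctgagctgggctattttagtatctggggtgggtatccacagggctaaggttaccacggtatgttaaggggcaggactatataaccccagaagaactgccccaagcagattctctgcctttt
Scn4a: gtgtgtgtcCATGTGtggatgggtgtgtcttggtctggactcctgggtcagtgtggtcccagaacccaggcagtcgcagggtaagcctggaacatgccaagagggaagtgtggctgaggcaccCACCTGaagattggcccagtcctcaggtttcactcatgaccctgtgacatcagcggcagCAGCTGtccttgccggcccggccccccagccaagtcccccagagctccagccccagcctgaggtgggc
Capn3 had 1 E-box and 1 MEF2 match, Myl11 had 1 E-box and Scn4a had 3. The E-box was found in 65.5% and the MEF2 motif in 2.96% of the 33469 rat promoters of this length. The E-box with the core CAGCTG, found in 12% of the promoters, was present before Myl11 and before Scn4a. A match is a description of these letters and not a binding site.

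Capn3 had a lower level in the loaded than in the control tibia on each of the 5 LOAD arrays. By its number the control on LOAD 4 may be from another rat. The log2 ratio of Capn3 was -0.63 ± 0.63 (SD, n = 5) in LOAD, or 0.646-fold, and 0.06 ± 0.51 (SD, n = 5) in SHAM. The log2 ratios of treated to contra lateral tibia were -0.03, -0.08, -1.21, -1.37 and -0.46 on LOAD 1 to 5 and -0.41, 0.88, -0.24, 0.19 and -0.12 on SHAM 1 to 5. LOAD 3, LOAD 4 and LOAD 5 were lower than every SHAM array, LOAD 1 and LOAD 2 lay close to 0, and the groups overlapped. Such a lower value on all 5 LOAD arrays was found in 1.81% of the 4472 genes measured on every array.
In limma the LOAD ratio of Capn3 had a standard error of 0.22 and an adjusted p = 1.00, with an unadjusted p of 0.0142. At a false discovery rate of 20%, 0 of the 4707 genes passed in LOAD (0%), and 1.72% had an unadjusted p under 0.05 and a lower value. In all 157 genes had such a p, where 235 would by chance in each comparison of ratios. The paper did call genes in LOAD at this threshold, muscle creatine kinase among them but not Capn3. It had filtered spots more strictly and kept duplicate spots separate. By an exact sign-flip permutation test of the 5 LOAD ratios, 2-sided, p was 0.0625, which is the smallest this number of arrays allows. LOAD minus SHAM gave a difference of -0.69 on the log2 scale (standard error 0.31; adjusted p = 0.999 in limma, unadjusted p = 0.0462). No gene passed 20% in this comparison (0%), where 70 genes had an unadjusted p under 0.05, and 0.914% of the genes had such a p and a lower value in LOAD. An exact permutation of the 5 LOAD and 5 SHAM arrays, 2-sided, gave p = 0.119. In SHAM, where 32 genes had an unadjusted p under 0.05 and none passed 20% (0%), Capn3 had an adjusted p = 1.00. Without both arrays numbered 4, Capn3 had -0.44 in LOAD and 0.03 in SHAM, and the difference was -0.47. When each array was left out in turn, the difference was -0.84 to -0.48.

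Cacng1 was lower on 4 of 5 LOAD arrays, by less than Capn3 in the mean. Its log2 ratios were 0.09, -0.09, -0.97, -0.64 and -0.20 on LOAD 1 to 5 and -0.05, 0.16, -0.12, -0.67 and 0.30 on SHAM 1 to 5. LOAD 3 and LOAD 4 were low, as for Capn3, but so was SHAM 4, and the groups overlapped. The mean was -0.36 ± 0.44 (SD, n = 5) in LOAD, or 0.778-fold, and -0.08 ± 0.37 (SD, n = 5) in SHAM. Neither mean passed (limma, adjusted p = 1.00 in both; unadjusted p = 0.0435 in LOAD and 0.647 in SHAM), and nor did the difference of -0.29 (standard error 0.23, adjusted p = 0.999). The exact permutation p was 0.125 for LOAD and 0.262 for LOAD against SHAM, both 2-sided. Without both arrays numbered 4, Cacng1 had -0.29 in LOAD and 0.07 in SHAM, and the difference was -0.37. Without LOAD 3 its mean in LOAD was -0.21 and the difference was -0.13, without SHAM 4 the difference was -0.44, and without normalization it was -0.09.

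Scn4a had ratios on both sides of 0 in both groups. They were -0.10, -0.13, 0.07, -1.27 and 0.47 on LOAD 1 to 5 and 0.09, 0.65, -0.36, 0.62 and -0.50 on SHAM 1 to 5. LOAD 4 lay far below all other arrays, and the groups overlapped. The mean was -0.19 ± 0.65 (SD, n = 5) in LOAD and 0.10 ± 0.53 (SD, n = 5) in SHAM, and the difference was -0.29 (standard error 0.32; limma, adjusted p = 0.999; exact permutation p = 0.516, 2-sided). Without both arrays numbered 4 the LOAD mean was 0.08, the SHAM mean was -0.03 and the difference was 0.11, so its direction rested on these arrays. When each array was left out in turn, the difference was -0.46 (without LOAD 5) to -0.024 (without LOAD 4).

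**Figure D1:**
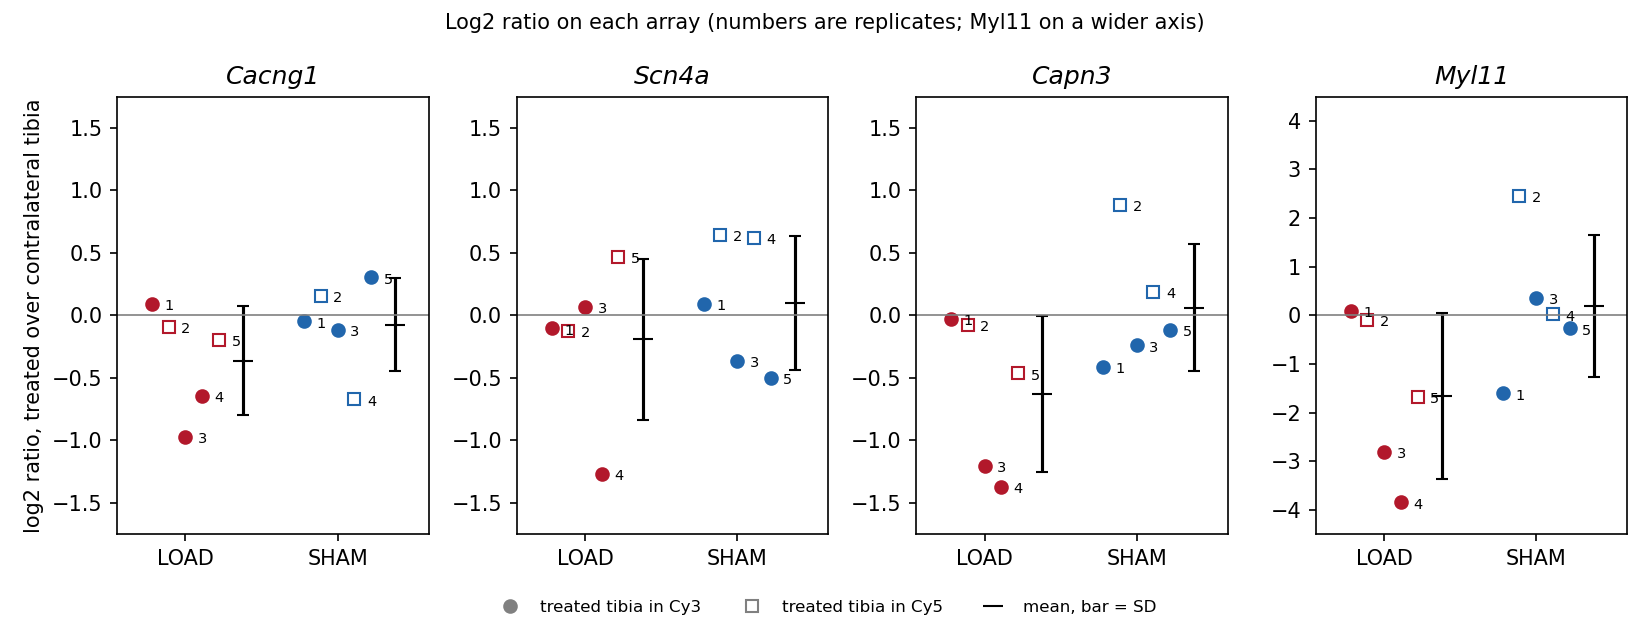
Log2 ratio of treated to contra lateral tibia (vertical axis) on each of the 5 LOAD and 5 SHAM arrays for Cacng1, Scn4a, Capn3 and, on a wider axis, Myl11; filled circles are arrays with the treated tibia in Cy3, open squares in Cy5, and black bars are mean and SD. Capn3 is below 0 on all 5 LOAD arrays, from -0.03 to -1.37, and every panel shows overlapping groups.

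The ratio of Scn4a differed between the dye orientations, although its dye term did not pass the test. On the 4 arrays with the treated tibia in Cy5 it averaged 0.40 (-0.13 to 0.65), and on the 6 arrays with the treated tibia in Cy3 it averaged -0.35 (-1.27 to 0.09). In a fit with a dye term beside the group means, this term was 0.37 on the log2 scale (standard error 0.13; limma, adjusted p = 0.290, unadjusted p = 0.0129), against 1.83% of all genes with a dye term past 20%. The term was of similar size in Capn3, at 0.35 (adjusted p = 0.305), and was 0.02 in Cacng1 (adjusted p = 0.972). With the dye term in the fit, the LOAD ratio was -0.12 for Scn4a, -0.56 for Capn3 and -0.36 for Cacng1, and none passed (adjusted p = 0.999 each).
A stamp of digits in the file headers split the arrays into 4 sets, here called scan batches, which the labels do not name. Batch 1 held 2 arrays of each group, and the others held 1 of each. Within the 4 batches LOAD minus SHAM was -0.29, -0.97, -1.56 and -0.35 for Capn3. It was -0.05, -0.86, 0.03 and -0.50 for Cacng1 and -0.48, 0.43, -1.89 and 0.97 for Scn4a. Only Capn3 among the 3 genes had the same sign in all 4 batches, and so did Myl11 and Ckm. The share of all genes with 1 sign in 4 batches was not computed. With the batch as a block the difference of Capn3 was again -0.69 (limma, adjusted p = 0.999). That value could not move, since each batch held as many LOAD as SHAM arrays.

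The level of each gene in each tibia was taken from the single channel analysis and is given as log2 of the normalized intensity; since probes differ in affinity, levels of different genes are not compared. Capn3 had 9.07, 9.003, 9.32, 9.15 and 9.54 in the loaded tibiae of LOAD 1 to 5, against 9.10, 9.08, 10.53, 10.52 and 10.01 in their contra lateral tibiae. In SHAM 1 to 5 it had 9.29, 10.51, 9.07, 9.05 and 8.76 in the squeezed tibiae, against 9.70, 9.62, 9.31, 8.86 and 8.87 in the contra lateral ones. The low ratios of LOAD 3, LOAD 4 and LOAD 5 thus came with a high level in the control tibia of the array, while the loaded tibiae lay within the range of the SHAM groups. By its number the control on LOAD 4, at 10.52, may be from the rat of SHAM 4. The control on SHAM 4 has the number next to the loaded tibia of LOAD 4. It had 8.86, against 9.15 in that loaded tibia.
The order of the means of Capn3 was LOAD contra lateral (9.85 ± 0.72), SHAM squeezed (9.33 ± 0.68), SHAM contra lateral (9.27 ± 0.40) and LOAD loaded (9.22 ± 0.22; SD, n = 5 each). No neighbours in this order differed beyond their spread (limma, adjusted p = 0.902, 1.00 and 0.992 from the top). The contra lateral tibiae of LOAD minus those of SHAM differed by 0.57 (standard error 0.38, adjusted p = 0.852 in limma, and 0.30 without both arrays numbered 4). The loaded minus the squeezed tibiae differed by -0.12 (standard error 0.38, adjusted p = 0.994 in limma). The order of the means and the contra lateral difference count the control on LOAD 4 as a LOAD tibia. Of 4472 genes none passed 20% between the contra lateral tibiae (0%) or between the treated tibiae (0%), with 234 and 206 genes at an unadjusted p under 0.05.

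Cacng1 had 9.67, 8.40, 9.21, 8.84 and 8.85 in the loaded tibiae of LOAD 1 to 5, against 9.58, 8.49, 10.19, 9.49 and 9.04 in their contra lateral tibiae. In SHAM 1 to 5 it had 9.24, 9.03, 9.41, 8.85 and 9.12 in the squeezed tibiae, against 9.29, 8.88, 9.53, 9.53 and 8.81 in the contra lateral ones. The highest level was again in the contra lateral tibia of LOAD 3, and both tibiae of LOAD 2 were the lowest of all. The means, from high to low, were 9.36 ± 0.63 in LOAD contra lateral, 9.21 ± 0.35 in SHAM contra lateral, 9.13 ± 0.21 in SHAM squeezed and 8.99 ± 0.48 in LOAD loaded tibiae (SD, n = 5 each), and no neighbours differed beyond their spread (limma, adjusted p = 0.942, 1.00 and 0.992). The contra lateral tibiae differed by 0.15 and the treated tibiae by -0.14, LOAD minus SHAM (standard error 0.30 in both; limma, adjusted p = 0.942 and 0.992).
Scn4a had 11.36, 11.95, 11.84, 10.65 and 12.06 in the loaded tibiae of LOAD 1 to 5, against 11.46, 12.08, 11.78, 11.92 and 11.59 in their contra lateral tibiae. In SHAM 1 to 5 it had 11.81, 11.60, 11.30, 11.72 and 11.22 in the squeezed tibiae, against 11.72, 10.95, 11.66, 11.10 and 11.72 in the contra lateral ones. The loaded tibia of LOAD 4 was the lowest of the 20. The means, from high to low, were 11.77 ± 0.24 in LOAD contra lateral, 11.57 ± 0.58 in LOAD loaded, 11.53 ± 0.26 in SHAM squeezed and 11.43 ± 0.37 in SHAM contra lateral tibiae (SD, n = 5 each), and no neighbours differed beyond their spread (limma, adjusted p = 1.00 for each). LOAD minus SHAM was 0.33 between the contra lateral and 0.04 between the treated tibiae (standard error 0.36 in both; limma, adjusted p = 0.882 and 1.00). In bulk RNA of a shaft, fewer cells of a type and less RNA per cell cannot be told apart.

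**Figure D2:**
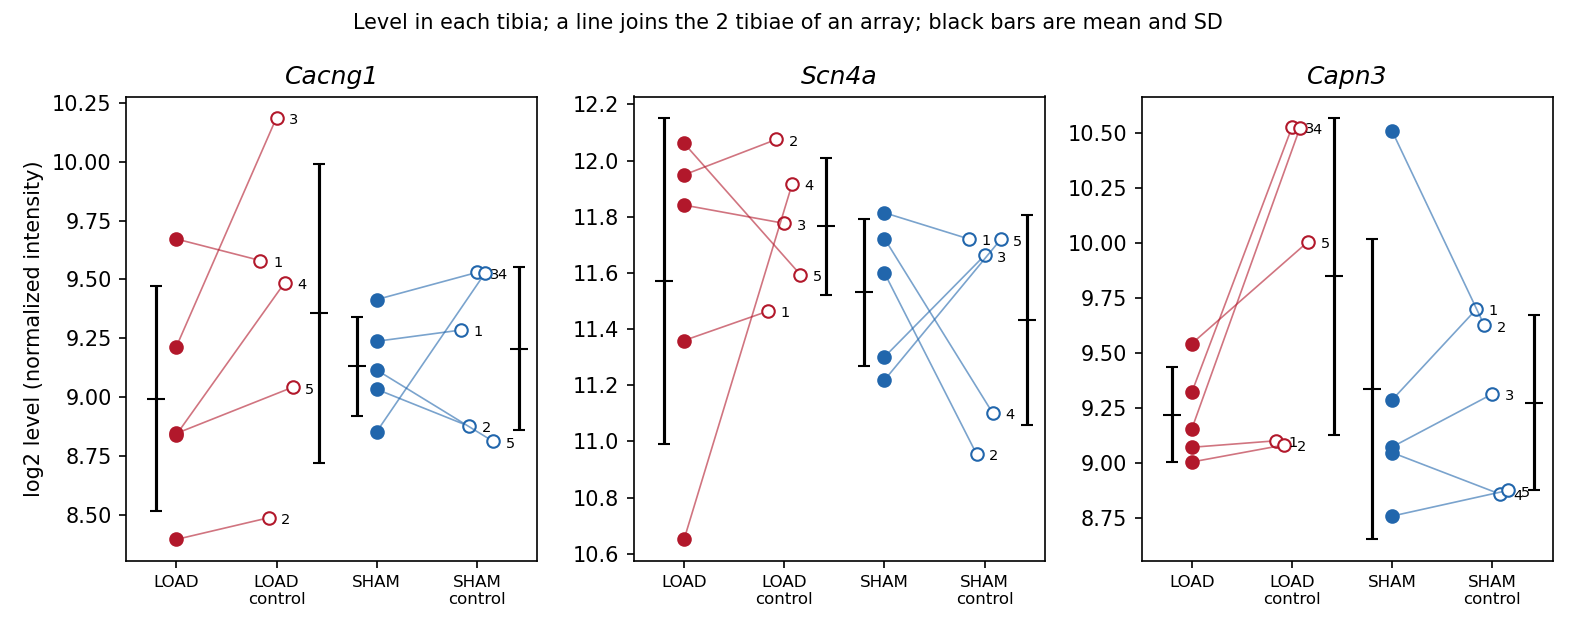
Level of Cacng1, Scn4a and Capn3 in each of the 20 tibiae (log2 of the normalized intensity, own axis for each gene); filled points are treated and open points contra lateral control tibiae, a line joins the tibiae of 1 array, and black bars are mean and SD. The 3 highest contra lateral values of Capn3 are those of LOAD 3, 4 and 5, at 10.53, 10.52 and 10.01. The control on LOAD 4 may be from another rat.

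Capn3 followed Myl11 closely across the 10 arrays, Cacng1 less closely, and for Scn4a no relation was shown. The log2 ratios of Myl11 were 0.10, -0.09, -2.81, -3.85 and -1.68 on LOAD 1 to 5 and -1.60, 2.45, 0.36, 0.02 and -0.27 on SHAM 1 to 5. In the loaded tibiae Myl11 carried signal on LOAD 3 only, so the size of its low ratios is uncertain.
For Capn3 Pearson's r with Myl11 was 0.97 (permutation p = 8e-05, n = 10) and Spearman's rho was 0.87 (permutation p = 0.00227). LOAD 3 and LOAD 4 lay farthest from the Myl11 median, and without these 2 arrays r was 0.92 (exact permutation p = 0.00377), and without both arrays numbered 4 it was 0.96. Its r ranked 6 of 4471 genes, while the median r over all genes was 0.01. In limma, with the group means in the fit, Capn3 changed by 0.34 for each log2 unit of Myl11 (standard error 0.04, adjusted p = 0.00588), and by 0.30 with a dye term as well (adjusted p = 0.0496). At 20% 17 of 4706 genes passed (0.361%), all higher where Myl11 was higher. The 5 of them that were named through RefSeq were Ckm, Svs4, Capn3, Pgam2 and Tnni2. Among the others were accessions that the study's annotation names as troponin-C, monoamine oxidase A, fibrinogen B beta chain and kinesin light chain C. The paper reports all of these as lower in LOAD on the array. Its RT-PCR gave a tendency to lower troponin-C and could not detect fibrinogen B beta chain in any tibia. It showed no significant LOAD change of monoamine oxidase A or kinesin light chain. The RT-PCR used more LOAD rats than the arrays. Whether these spots measure the named transcripts was not tested. When each array was left out in turn, the adjusted p of Capn3 was at most 0.0899.
For Cacng1 r was 0.64 (permutation p = 0.0445, n = 10) and rho was 0.50 (permutation p = 0.145). This relation rested on LOAD 3 and LOAD 4, since without them r was 0.24 (exact permutation p = 0.549). When each array was left out in turn, r was 0.55 to 0.77 and the permutation p was 0.0147 to 0.128. It was above 0.05 without any one of the 5 LOAD arrays, SHAM 2 or SHAM 3. The slope of 0.14 did not pass (standard error 0.07; limma, adjusted p = 0.939).
For Scn4a r was 0.54 (permutation p = 0.11, n = 10) and rho was 0.32 (permutation p = 0.366). Without LOAD 3 and LOAD 4 r was 0.18, without both arrays numbered 4 it was 0.13, and with the dye term taken out it was 0.36. Its slope did not pass either (0.18, standard error 0.10; limma, adjusted p = 0.939). Among these 3 relations only that of Capn3 passed by its slope over all genes. The permutation p values were not adjusted over the 3 relations.

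**Figure D3:**
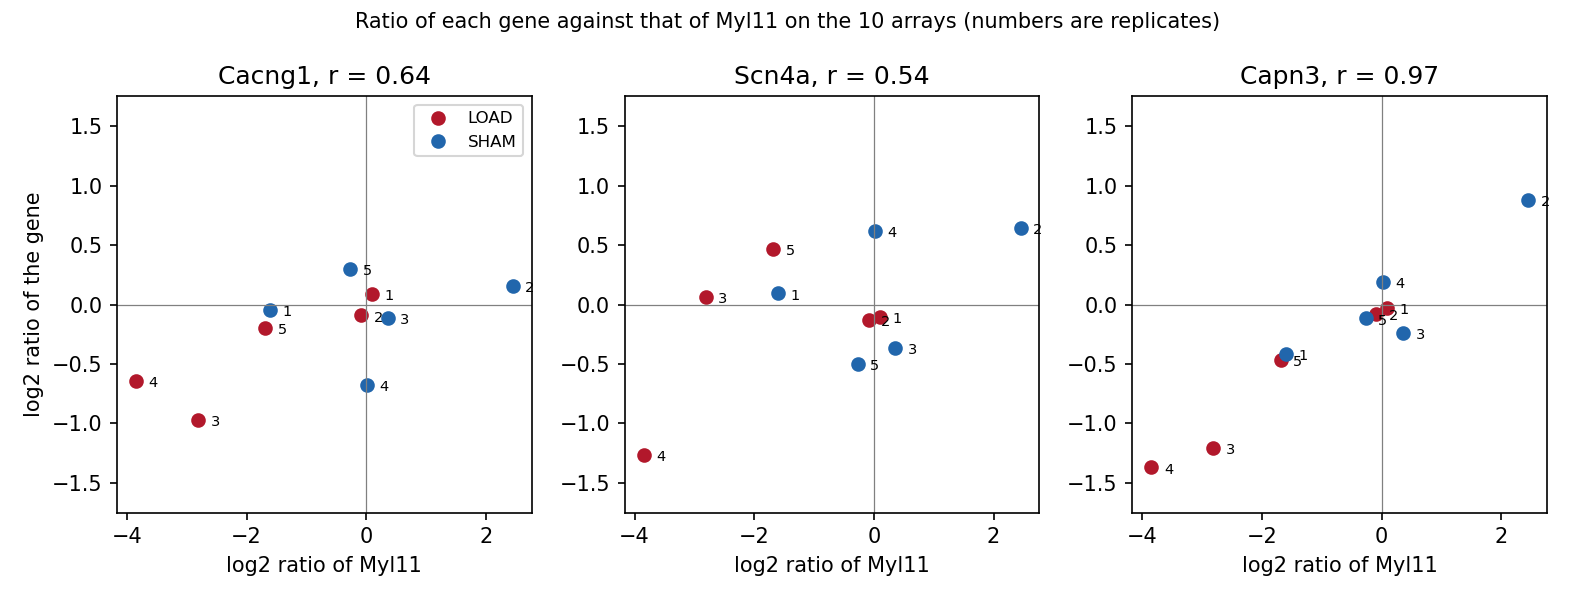
Log2 ratio of Cacng1, Scn4a and Capn3 (vertical axis) against the log2 ratio of Myl11 (horizontal axis) on the 5 LOAD arrays and 5 SHAM arrays, numbered by replicate. Capn3 lies along a line from LOAD 4 (-3.85 for Myl11 and -1.37 for Capn3) to SHAM 2 (2.45 and 0.88), with r = 0.97, and the other genes scatter more widely.

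The levels in single tibiae ran the same way for Capn3. Over the 20 tibiae its level correlated with that of Myl11 at r = 0.95, against 0.32 for Cacng1 and 0.23 for Scn4a; tibiae of an array share its hybridization, so these values are given as a description. The contra lateral tibiae of LOAD 3, LOAD 4 and LOAD 5 and the squeezed tibia of SHAM 2 held the highest levels of both Capn3 and Myl11 (10.06, 11.14, 9.11 and 10.05 for Myl11). In the loaded tibiae of LOAD 1 to 5 Myl11 had 6.77, 6.81, 7.25, 7.29 and 7.43. Those 4 tibiae were picked as the highest for both genes, so every other tibia was lower by this choice. None of the 4 was a loaded tibia, and the loaded tibiae, at 9.003 to 9.54 for Capn3, overlapped with the remaining ones.

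**Figure D4:**
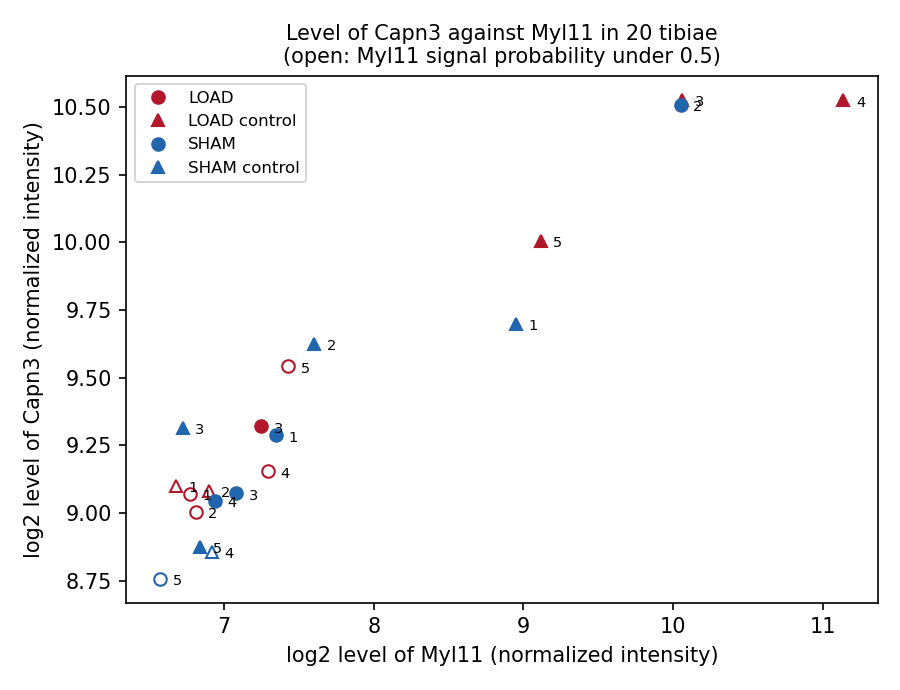
Level of Capn3 (vertical axis) against the level of Myl11 (horizontal axis) in 20 tibiae, both as log2 of the normalized intensity; circles are treated and triangles contra lateral control tibiae, and open symbols mark a Myl11 signal probability under 0.5. The 4 tibiae with the highest Capn3, at 10.01 to 10.53, also have the highest Myl11.

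Most other muscle transcripts had ratios of the same direction in LOAD, none of them past the test. Of 18 sarcomere and muscle energy genes 13 were lower in LOAD (median -0.15, against -0.01 over all genes) and 7 in SHAM (median 0.02, against 0.003), and 14 of 18 were lower in LOAD when set against SHAM (median -0.17). The summed linear level of the 17 genes with a level was 8031 to 10171 in loaded tibiae, 8775 to 16855 in LOAD contra lateral, 8380 to 12022 in SHAM squeezed and 8110 to 10149 in SHAM contra lateral tibiae. Of the 18 genes 7 carried signal in fewer than 10 of 20 channels, and Mstn in 0. Ckm, the muscle creatine kinase with signal in all 20 channels, differed by -1.60 between LOAD and SHAM (standard error 0.55; limma, adjusted p = 0.999). Myl11, with signal in 12 of 20 channels, differed by -1.86, Pgam2, the muscle phosphoglycerate mutase, by -0.91 with signal in 5, and the myogenic factor Myf6 by -0.28 with signal in 4 (limma, adjusted p = 0.999 each), so the size of these 3 differences is uncertain. Capn3 correlated with Ckm at r = 0.91. Markers of some other tissues had lower values in LOAD as well. All 4 cartilage genes were lower in LOAD (median -0.25) and in LOAD against SHAM (median -0.28), and so were both osteoclast genes (median -0.19 and -0.34), whereas all 4 osteoblast genes were higher in LOAD (median 0.07) and 2 of them in LOAD against SHAM (median -0.02). Of these cartilage genes Chad carried signal in 2 of 20 channels. The marker lists of osteocytes, blood cells, vessel, nerve and adipocytes had medians of 0.012 to 0.16 in LOAD. The value of 0.16 was that of the vessel list, which was 1 gene (Kdr) with signal in 4 of 20 channels. Of the 3 osteocyte genes 2 were higher in LOAD and 1, Pdpn, was lower at -0.22. The summed level of the 3 cartilage genes with a level was 639 to 1462 in loaded tibiae, 555 to 2277 in LOAD contra lateral, 704 to 1538 in SHAM squeezed and 875 to 1163 in SHAM contra lateral tibiae, so the groups overlapped. None of these genes passed 20%. The part of muscle, cartilage or osteoclast RNA in the ratios of Capn3, Cacng1 and Scn4a was not tested.

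The 3 genes were unequally related to each other. Over the 10 arrays Capn3 correlated with Cacng1 at r = 0.65 and with Scn4a at r = 0.62, while Cacng1 and Scn4a correlated at r = 0.06; with the dye term taken out these were 0.75, 0.41 and 0.05. Among 1075 named genes with a value on every array, the ratios most like that of Capn3 were those of Tnni2 (r = 0.98), the inhibitory troponin subunit of fast fibers, Myl11 (0.97), the seminal vesicle protein Svs4 (0.93), the potassium channel Kcnj8 (0.93) and Ckm (0.91). The least like were Mxi1 (-0.84), a partner of Max, and Calcrl (-0.84), the calcitonin receptor-like receptor.
For Cacng1 they were the dopamine receptor Drd5 (r = 0.80), the peroxisomal thiolase Acaa1a (0.78), the muscle enolase Eno3 (0.77), Ckm (0.70) and the proteoglycan Sdc1 (0.69), and at the other end Ghrhr (-0.89), the receptor for growth hormone-releasing hormone, and the cytokine Il18 (-0.84). Drd5, Sdc1, Ghrhr and Il18 carried signal in only 3, 1, 2 and 1 of 20 channels. For Scn4a they were the receptor Tnfrsf8 (r = 0.98), gastrin (Gast, 0.96), urocortin (Ucn, 0.95), amphiregulin (Areg, 0.95) and amylin (Iapp, 0.94), and at the other end the cytochrome Cyp3a23-3a1 (-0.93) and the Golgi protein Glg1 (-0.93). No muscle gene stood among the nearest 5 of Scn4a, against 3 for Capn3 (Tnni2, Myl11 and Ckm) and 2 for Cacng1 (Eno3 and Ckm). Of the 20 genes nearest to each, Cacng1 shared 4 with Capn3 (20.0% of either list) and 0 with Scn4a, and Scn4a shared 3 with Capn3 (15.0%). These values are descriptions over 10 arrays that share a normalization and a dye orientation. The r of the nearest and least like genes was also computed with median centring, without normalization and with the dye term removed. The negative r did not hold in all 3 settings. Its highest value was 0.75 (Mxi1) and 0.51 (Calcrl) with Capn3 and 0.79 (Ghrhr) and 0.53 (Il18) with Cacng1. With Scn4a it was 0.56 (Cyp3a23-3a1) and 0.21 (Glg1). The nearest genes kept a positive r, down to 0.33 for Drd5 and 0.27 for Sdc1 with Cacng1.

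Other named genes of excitation and calcium handling gave small differences, and none passed 20% in LOAD, in SHAM or between them. Of 18 measured genes of the sarcolemma and calcium release, Scn4a and Cacng1 among them, 12 gave a negative and 6 a positive value of LOAD minus SHAM (median -0.07, against -0.01 over all 4707 genes), and 6 of the 18 carried signal in fewer than 10 of 20 channels. Kcnj8, a pore-forming subunit of the ATP-sensitive potassium channel, differed by -0.52 (standard error 0.24, unadjusted p = 0.0531). Cacnb1, the beta subunit of the muscle L-type channel and so a partner of Cacng1, differed by 0.31 (standard error 0.19), the other way from Cacng1. Scn2b, an auxiliary sodium channel subunit with signal in 9 of 20 channels, differed by -0.16 (standard error 0.12).
Of 5 genes of calcium uptake and buffering 4 were lower and 1 was higher in LOAD against SHAM (median -0.06), and the calcium store protein Casq2 differed by -0.23 (standard error 0.14) with signal in 0 of 20 channels. Of 6 genes of the neuromuscular junction 4 were lower and 2 were higher (median -0.06), with Erbb3, a neuregulin receptor, at -0.08 (standard error 0.10). Of the ubiquitous calpains, Capn2 had 0.11 ± 0.27 and Capn1 had -0.02 ± 0.22 in LOAD (SD, n = 5), and LOAD minus SHAM was 0.09 and 0.03 (standard error 0.15 and 0.12). The difference between the calpains was not tested. Of 5 calcium-dependent kinases and phosphatases 4 were higher and 1 was lower (median 0.06), and the lower one was the calmodulin-dependent kinase Camk4 at -0.23 (standard error 0.14).

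**Figure D5:**
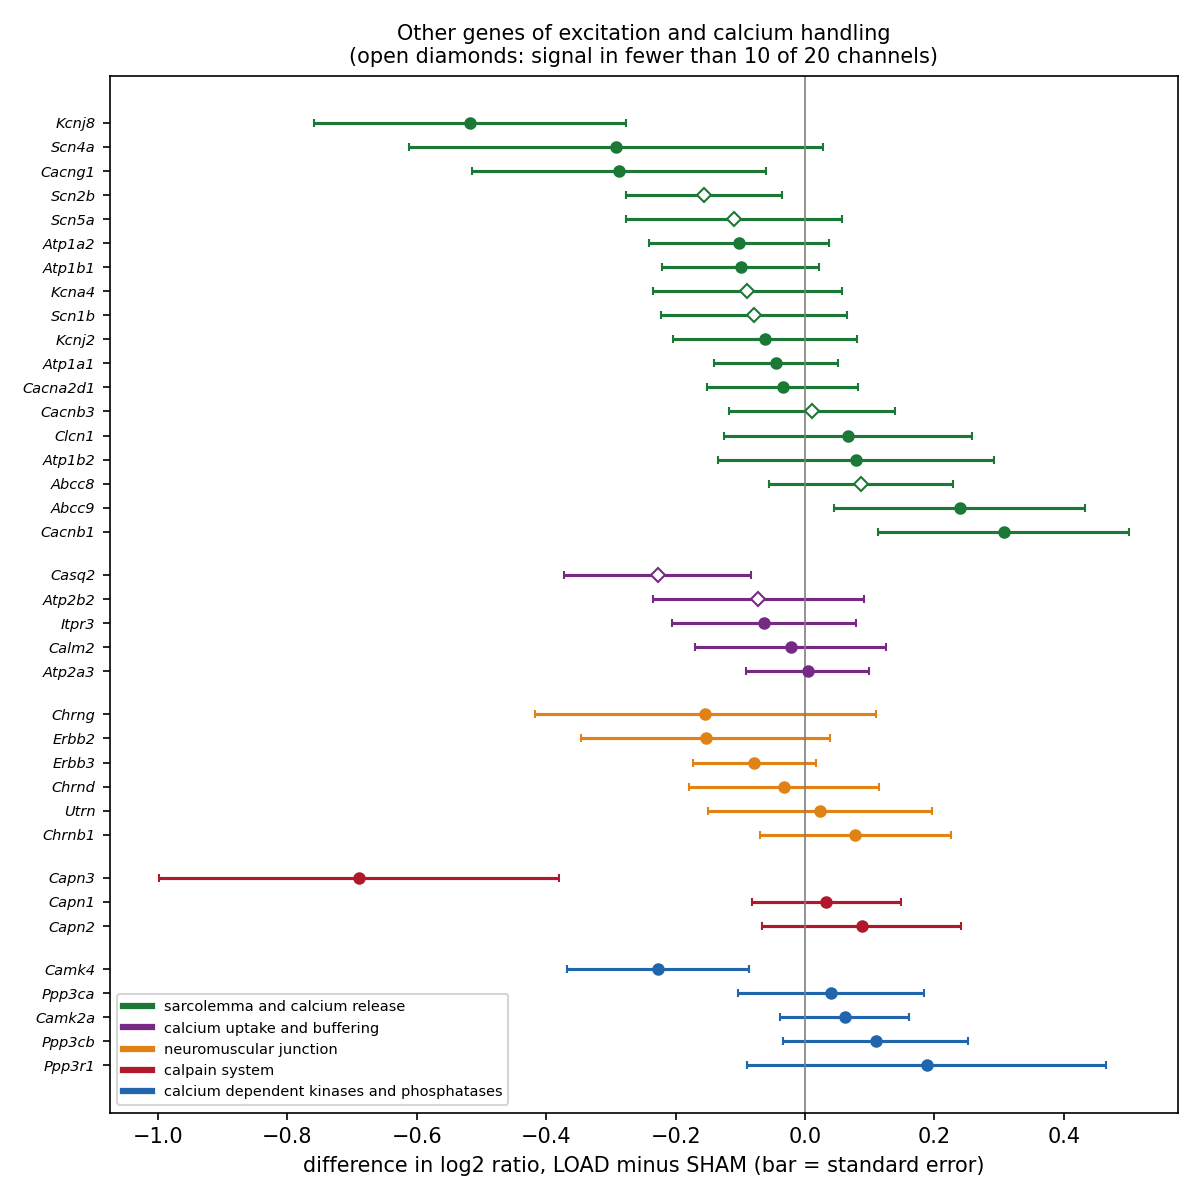
Difference in log2 ratio, LOAD minus SHAM (horizontal axis), for each measured gene of 5 lists of excitation and calcium handling; points are limma estimates, bars are standard errors, and open diamonds are genes with signal in fewer than 10 of 20 channels. Capn3 at -0.69 and Kcnj8 at -0.52 lie farthest to the left, and Cacnb1 at 0.31 farthest to the right.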

How the data were processed

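The authors scanned 10 arrays and quantified the spots in BlueFuse (version 2.0 per the file headers; the study names another). The deposited files hold an intensity per dye, combined over duplicate spots and not normalized, with a confidence and a signal probability per channel, each a fraction. The deposited matrix holds log2 ratios of these intensities before normalization and was used as an alternative. Of 4803 accessions 1177 were named through RefSeq. Values of spots below a confidence of 0.11 were taken as missing, loess normalization was applied to each array (span 0.3, 4 iterations), and genes with over 1 missing value of 10 were left out, which kept 4707. Means of LOAD and SHAM were fitted in limma 3.58.1 (R 4.3.3) with Benjamini-Hochberg adjustment over all genes and a threshold of 20%. Levels came from Aquantile normalization and limma's single channel fit of 4472 genes (intraspot correlation 0.739). Permutation tests of correlations over 10 arrays used 100000 draws, others were exact. P-values measure the spread between arrays, whose number limits the precision. The scripts were tested on simulated data. The 3 genes, the lists and the rule for named genes (those of each list with the lowest unadjusted p in LOAD minus SHAM, up to 4, and the 5 most and 2 least similar genes per member) were chosen with earlier results of these data known; for most lists fewer than 4 are named, which was decided after their values were seen. Alternatives changed normalization, filters, offset, dye, batch, replicate block and arrays included.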

Additional observations from a re-analysis of the deposited data

How the results depend on the processing

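Scn4a, Cacng1 and Capn3 did not pass 20% in LOAD, in SHAM or in LOAD minus SHAM under any alternative run, and the ratio of Capn3 stayed lower in LOAD and its relation with Myl11 stayed past the threshold in all of them. Without both arrays numbered 4, Scn4a turned to 0.075 in LOAD, -0.031 in SHAM and 0.11 in LOAD minus SHAM, Cacng1 to 0.074 in SHAM, Capn2 to -0.040 and Capn1 to -0.0038 in LOAD minus SHAM. Leaving out each array in turn gave -0.36 to 0.075 for Scn4a in LOAD, and -0.17 to 0.074 (Cacng1), -0.037 to 0.25 (Scn4a) and -0.15 to 0.18 (Capn3) in SHAM. It gave -0.057 to 0.37 for Cacng1 between the contra lateral tibiae, and -0.31 to 0.012 (Cacng1), -0.081 to 0.27 (Scn4a) and -0.26 to 0.18 (Capn3) between the treated tibiae. In SHAM Capn3 turned to -0.34 and Scn4a to -0.31 without normalization, as with the deposited matrix (-0.34 and -0.31). Without normalization between arrays Cacng1 turned to -0.19 between the contra lateral and Scn4a to -0.20 between the treated tibiae. Within scan batches LOAD minus SHAM moved to -0.86 for Cacng1 (batch 2), -1.56 for Capn3 (batch 3) and 0.43, -1.89 and 0.97 for Scn4a (batches 2, 3 and 4).

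The r of Cacng1 with Myl11 was 0.57 as deviations from the group means, 0.70 without both arrays numbered 4 and 0.24 without the 2 farthest arrays (permutation p = 0.0881, 0.0661 and 0.549, exact in the last 2), and 0.55 to 0.77 without each array in turn. Without normalization, where 4277 genes passed by their slope on Myl11, Scn4a had r = 0.64 (permutation p = 0.0456) and slopes of 0.42 for Scn4a and 0.39 for Cacng1 passed. By slope 11 to 18 genes passed without each array in turn. Without normalization 9 genes passed in LOAD and 2 in LOAD minus SHAM, and 10 and 2 with the deposited matrix. Between the contra lateral tibiae 17 genes passed with the replicate block and 0 to 8 without each array in turn. The causes were not tested. Myl11 carried signal in 12 of 20 channels, which limits its low values.

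Among other genes in LOAD minus SHAM, Scn2b, Casq2 and Erbb3 turned to 0.058, 0.13 and 0.073 without normalization and to 0.058, 0.13 and 0.073 with the deposited matrix. With the dyes of LOAD 2 exchanged Cacnb1, Scn2b, Erbb3, Capn2 and Capn1 had -0.086, 0.0042, 0.032, -0.021 and -0.060, and with median centring Capn1 had -0.072. Leaving out each array in turn gave -0.0077 to 0.17 for Capn2 and -0.031 to 0.12 for Capn1. List medians of LOAD minus SHAM turned as well. Without normalization they were 0.14 for sarcolemma and calcium release, 0.14 for calcium uptake and buffering and 0.18 for the neuromuscular junction. That of the sarcomere and muscle energy genes stayed lower, at -0.013. With median centring the median of the calcium-dependent kinases and phosphatases was -0.018. Unadjusted p under 0.05 held for 25 to 365 genes in LOAD, 12 to 73 in SHAM and 9 to 179 in LOAD minus SHAM over all alternatives. Same-numbered arrays of LOAD and SHAM correlated at -0.40 to 0.07, and 0 of 5 numbers correlated best with themselves. Ratios of different rats need not correlate, so this does not show whether same-numbered arrays were run as pairs. Both arrays numbered 3 were in scan batch 2, those numbered 4 in batch 3 and those numbered 5 in batch 4. With the replicate block the LOAD minus SHAM differences of Capn3, Cacng1 and Scn4a were again -0.69, -0.29 and -0.29 (limma, adjusted p = 0.999). These values could not move, since each number holds as many LOAD as SHAM arrays. No other call of these genes changed.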
